A study of Rattus norvegicus with 4 samples.

Results

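Translation initiation and elongation factors were followed across rat cortical cells on 4 hydrogels. A gene belonged to the set if its listed name began with Eif and a digit or with Eef1 or Eef2, if the name did not end as a numbered pseudogene, and if its FPKM (the count scaled by gene model length and by the summed count of the library) reached 1 in at least 1 library. This gave 60 genes of the 18755 listed, and of the 12394 genes that reached 1 FPKM in at least 1 library. The names of 68 rows met the first condition. Among the other rows, 5 carried pseudogene names and 3 stayed under 1 FPKM in every library.

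The cells came from cerebral cortices of E16 SD (Sprague Dawley) rats and were kept as primary cultures for 24 h in Neurobasal medium with 2% B27 and 1% PS. They were plated at 100000 cells per well on 4 kinds of hydrogel, 5 wells of each, titled SFMA, N-SFMA, L-SFMA or NL-SFMA; where levels are listed, "with N", "with L" and "with NL" stand for the lettered ones. All 4 groups share the SFMA name, and SFMA without a letter served as the reference here; the meaning of N and L is not stated in the sources used here. Poly(A) RNA was sequenced from 1 library per hydrogel, so there is no spread between replicates, no p-value is given, and every difference describes these libraries and not the hydrogels in general.

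Translation of an mRNA begins when eIF2, bound to GTP and the initiator tRNA, joins the small ribosomal subunit together with eIF1, eIF1A, eIF3 and eIF5. The eIF4F complex of the cap-binding protein eIF4E, the scaffold eIF4G and the helicase eIF4A brings this assembly to the mRNA cap, and eIF5B then helps the large subunit to join. During elongation eEF1A delivers aminoacyl-tRNAs, the eEF1B subunits recharge it with GTP, eEF2 moves the ribosome along, and eIF5A helps at difficult peptide bonds. In growing neurons this machinery is controlled by mTOR, through the eIF4E-binding proteins, and by the kinases of eIF2.

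The summed counts ran from 14172205 reads (NL-SFMA) to 17553098 reads (SFMA), and the least counted factor still had 79 to 157 reads per library. Reads came from longer gene models on the lettered hydrogels: the read-weighted median model length was 2851 bases on SFMA, 3278 with N, 3438 with L and 3626 with NL. Mitochondrially encoded genes took 2.23% to 2.68% of reads in 3 libraries and 5.89% on NL-SFMA. Of the neuronal markers, 8 of 8 reached 1 FPKM, and 3 of 8 were 1.5-fold higher and 0 lower on each lettered hydrogel. Of all genes that reached 1 FPKM, 7.24% were higher with N, 14.8% with L and 21.6% with NL, and 10.7%, 11.1% and 29.3% lower. With the trend on gene length subtracted (below), 4, 3 and 5 of the 8 were higher and 0 lower. By that measure 5.79%, 8.12% and 19.1% of all genes were higher and 6.78%, 7.46% and 18.9% lower. Dcx was at 68.3 FPKM on SFMA and 266 on NL-SFMA, and Tubb3 at 1882 and 1659. Endothelial and muscle markers all stayed under 1 FPKM. The summed FPKM of the 6 radial glia markers was 1481 on SFMA and 640.5 to 738 on the others. Most of that sum on SFMA was Vim (1088) and Fabp7 (264). Of the 6 markers, 0, 1 and 0 were higher and 5, 3 and 5 lower with N, L and NL. With the length trend subtracted 0, 1 and 0 were higher and 3, 3 and 3 lower. The marker higher on L-SFMA was Hes5, at 10.5 FPKM on SFMA, 7.77 with N, 18.0 with L and 5.84 with NL. Erythroid markers summed to 545 FPKM on SFMA and 69.6 to 161 on the others. Astrocyte markers summed to 2.03 to 5.02 FPKM and microglia markers to 5.49 to 20.3 FPKM. The part of read length, mitochondrial share and cell makeup in the results on the factors was not tested, and in bulk RNA fewer cells of a type and less RNA per cell cannot be told apart.

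As a set, the factors took 2.03% of reads on SFMA, 2.00% with N, 1.72% with L and 1.84% with NL. Their levels spanned a wide range within each library: on SFMA the lowest was Eif5a2 at 2.97 FPKM, the median was 51.0 FPKM and the highest was Eef2 at 1216 FPKM. The median factor was at 52.9 FPKM with N, 46.8 with L and 42.5 with NL. SFMA held the highest level for 30 of the 60 factors (50%, against 36.7% of all genes tested), NL-SFMA for 20 (33.3% against 32.2%), L-SFMA for 5 (8.33% against 22.3%) and N-SFMA for 5 (8.33% against 8.73%). L-SFMA held the lowest level for 18 factors (30% against 9.36% of all genes), and NL-SFMA for 25 (41.7% against 44.0%). The counts for NL-SFMA were thus near the share of all genes, and those for L-SFMA stood farthest from it, a description with no test.

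**Figure D1:**
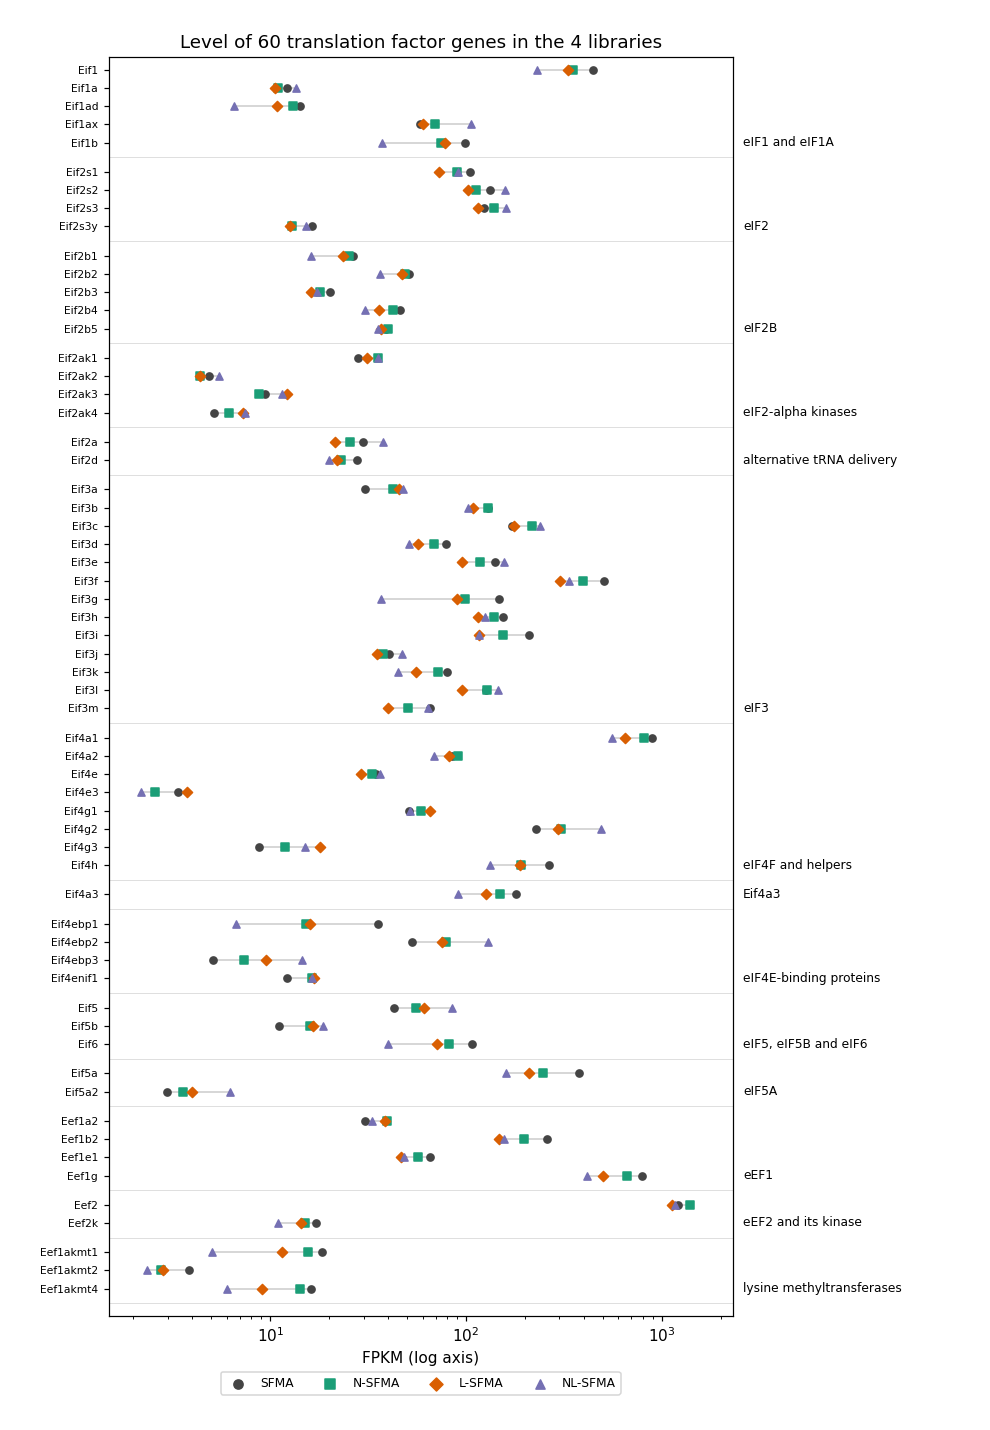
FPKM of the 60 factors in the 4 libraries on a log axis, ordered by factor complex, each point 1 gene in 1 library. Levels run from 2.18 FPKM (Eif4e3, NL-SFMA) to 1386 FPKM (Eef2, N-SFMA), and the 4 points of most genes lie close together, with Eif4ebp1 and Eif3g among the widest spreads.

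Differences from SFMA were taken as log2 ratios of FPKM + 1, and a factor was counted as higher or lower at 1.5-fold on that scale, a rule of size and not a test. On N-SFMA 0 of 60 factors were higher (7.24% of all genes tested were) and 2 of 60, or 3.33%, were lower (10.7% of all genes). On L-SFMA 2 of 60 were higher (14.8% of all genes) and 10 of 60, or 16.7%, were lower (11.1% of all genes). On NL-SFMA 9 of 60, or 15.0%, were higher (21.6% of all genes) and 20 of 60, or 33.3%, were lower (29.3% of all genes). At 2-fold, 0 were higher and 1 lower on N-SFMA (0.855% and 2.65% of all genes), 0 and 1 on L-SFMA (3.32% and 3.04%), and 3 and 8 on NL-SFMA (10.1% and 15.1%). At 1.5-fold the share of higher factors was thus below that of all genes on each lettered hydrogel, while the share of lower factors was below it on N-SFMA and above it on L-SFMA and NL-SFMA as deposited, an order that turned on both under TPM scaling and with the trend on gene length subtracted (values below). The median log2 difference of the factors was -0.15 with N, -0.32 with L and -0.21 with NL, against -0.02, 0.05 and -0.10 over all genes tested. With values rescaled to TPM, which raised the median of all genes by 0.17, 0.24 and 0.25, the factor medians became 0.04, -0.08 and 0.06, so the sign of the median on N-SFMA and NL-SFMA depends on the scaling, and relative to all genes the factors stayed lower. Under that scaling the shares of all genes higher and lower became 17.6% and 7.95% on N-SFMA, 30.3% and 6.99% on L-SFMA, and 32.6% and 22.9% on NL-SFMA. Of the 60 factors, 6 were then higher and 1 lower on N-SFMA, 13 and 3 (5.0% lower) on L-SFMA, and 15 and 12 (20% lower) on NL-SFMA.

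Gene length divided the set. The gene models of the factors ran from 1106 bases (Eef1akmt4) to 9553 bases (Eif4ebp3), and the log2 difference from SFMA was larger for longer genes: across the 60 genes, which are not independent replicates and share 1 library per hydrogel, Pearson's r with log2 length was 0.62 with N, 0.79 with L and 0.66 with NL. Over all genes tested it was 0.46, 0.53 and 0.50. Of the 6 factors under 1500 bases, 4 were lower on L-SFMA (36.9% of all genes of that length were) and 4 on NL-SFMA (60.7%). Of the 4 factors over 6000 bases, 2 were higher on L-SFMA (48.8% of all genes of that length) and 3 on NL-SFMA (59.1%), and 0 were lower. Genes of all kinds followed the same order, with medians on NL-SFMA of -0.84 under 1500 bases and 0.75 over 6000 bases. With the trend on length over all genes subtracted, the factor medians were -0.02, -0.25 and -0.04. By that measure 1 factor was higher and 2 were lower on N-SFMA (5.79% and 6.78% of all genes), 0 and 4 on L-SFMA (8.12% and 7.46%), and 7 and 10 on NL-SFMA (19.1% and 18.9%); the 4 lower on L-SFMA were 6.67% of the factors and the 10 lower on NL-SFMA 16.7%. L-SFMA was the hydrogel whose factor median stayed farthest below that of all genes.

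**Figure D2:**
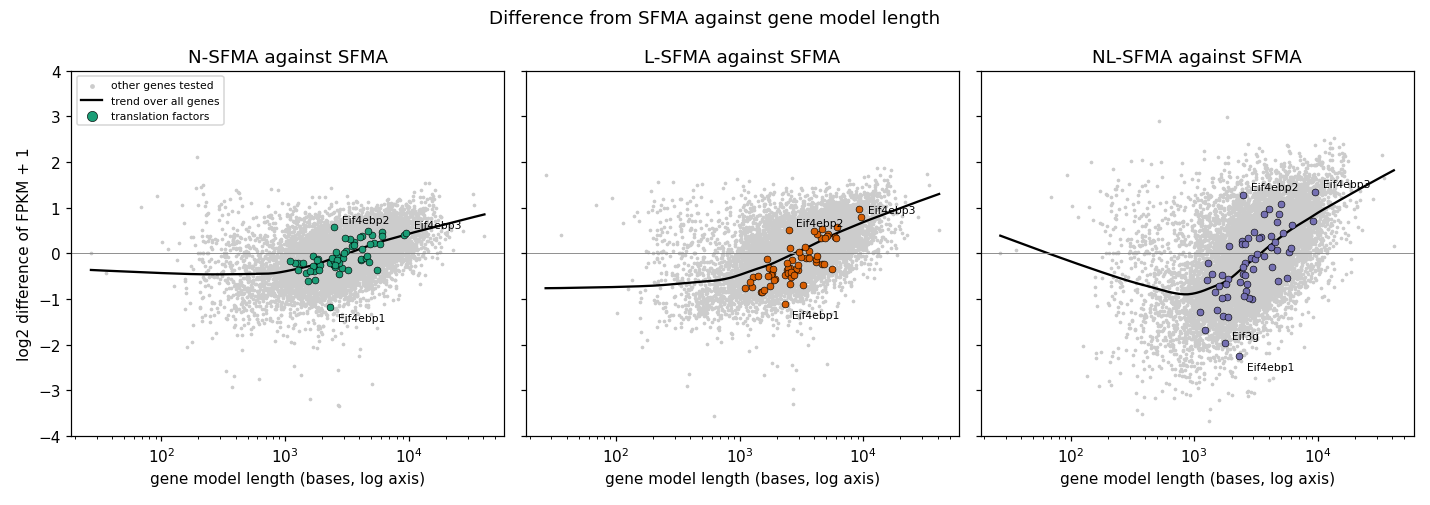
Log2 difference in FPKM + 1 from SFMA against gene model length in bases (log axis), 1 panel per lettered hydrogel, with the 60 factors as coloured points, other tested genes in grey and the trend over all 12394 tested genes as a line. Short factors lie low and long ones high, with r of 0.62, 0.79 and 0.66, and Eif4ebp1, Eif3g and Eif4ebp2 lie away from the trend on NL-SFMA.

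The eIF1 and eIF1A genes, whose products keep the small subunit open for scanning and help choose the start codon, parted on NL-SFMA. Eif1 was at 447 FPKM on SFMA, 353 with N, 332 with L and 231 with NL. Its close relative Eif1b was at 98.4, 74.8, 78.2 and 37.2 FPKM in the same order, 2.65-fold lower on NL-SFMA (95% counting interval 2.46 to 2.86). Eif1ax, the X-linked eIF1A gene, was at 58.1, 69.6, 60.6 and 107 FPKM, 1.83-fold higher on NL-SFMA (1.76 to 1.91). Thus Eif1 and Eif1b were lowest on the hydrogel where Eif1ax was highest. Allowing for length, the differences on NL-SFMA were -0.35 for Eif1, -0.74 for Eif1b and 0.81 for Eif1ax on the log2 scale. Eif1a was nearly level at 10.6 to 13.6 FPKM, and Eif1ad, which encodes a protein with an eIF1A-like domain, went from 14.2 FPKM on SFMA to 6.57 on NL-SFMA. Folds here and below are ratios of CPM (the count as a share of the summed count), and their exact Clopper-Pearson 95% intervals cover counting error only, since PCR copies of 1 molecule cannot be recognised without molecular identifiers.

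The subunits of eIF2, which carries the initiator tRNA, were lowest on L-SFMA in all 4 cases as deposited, and under TPM scaling in Eif2s1 and Eif2s2 but not in Eif2s3 or Eif2s3y. Eif2s1, the alpha subunit on which stress kinases act, was at 105 FPKM on SFMA, 90.3 with N, 72.7 with L and 91.4 with NL, which made it 1.45-fold lower on L-SFMA (1.36 to 1.55). Eif2s2, the beta subunit, was at 132, 112, 102 and 159 FPKM. Eif2s3, the X-linked gene of the gamma subunit, was at 124, 139, 115 and 159 FPKM, so beta and gamma were both highest on NL-SFMA. Its Y-linked partner Eif2s3y was at 12.6 to 16.3 FPKM, 0.0927 to 0.131 of the X-linked level in the 4 libraries. None of the 4 passed 1.5-fold as deposited, while on NL-SFMA Eif2s2 did with the length trend subtracted (0.59 on the log2 scale) and Eif2s3 did under TPM scaling (0.64). Allowing for length, the median of the 4 subunits on NL-SFMA was 0.47 with all 4 above 0, where 0.09 was the median without that allowance.

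The 5 genes of eIF2B, the exchange factor that reloads eIF2 with GTP, were all below their SFMA level on L-SFMA and NL-SFMA as deposited, while under TPM scaling Eif2b1, Eif2b2 and Eif2b5 were above it on L-SFMA and Eif2b3 and Eif2b5 on NL-SFMA. Eif2b1, the regulatory alpha subunit, was at 26.4 FPKM on SFMA, 25.2 with N, 23.6 with L and 16.2 with NL and was the only one past 1.5-fold, on NL-SFMA. Eif2b5, the catalytic subunit, was nearly level at 35.4 to 40.0 FPKM. The other eIF2B genes ran from 16.1 to 51.0 FPKM. Their median on NL-SFMA was -0.48, and it was 0.02 with the length trend subtracted, close to genes of like length.

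Transcripts of the 4 eIF2-alpha kinases were low, and none passed 1.5-fold as deposited or with the length trend subtracted. Under TPM scaling Eif2ak4 (0.69) and Eif2ak3 (0.59 on the log2 scale) were past it on L-SFMA. On NL-SFMA Eif2ak4 (0.76) and Eif2ak1 (0.61) were past it under that scaling. Eif2ak1, the heme-sensing kinase, was at 28.1 FPKM on SFMA, 35.4 with N, 31.2 with L and 35.5 with NL. Eif2ak4 (GCN2), which senses uncharged tRNA, was at 5.17, 6.16, 7.24 and 7.45 FPKM; Eif2ak3 (PERK), of the endoplasmic reticulum stress response, was at 8.77 to 12.2 FPKM, and Eif2ak2 (PKR), which senses double-stranded RNA, at 4.35 to 5.45 FPKM. The kinases are long genes, and their median on NL-SFMA of 0.29 was 0.02 with the length trend subtracted. Eif2a, a factor outside the eIF2 complex that can bring in initiator tRNA, was at 29.8, 25.7, 21.4 and 37.7 FPKM, and Eif2d, which acts on ribosomes after termination, at 19.9 to 27.6 FPKM.

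eIF3, the large complex that binds the small subunit and holds the initiation assembly together, had 13 subunit genes in the set. Their summed FPKM was 1881 on SFMA, 1650 with N, 1332 with L and 1512 with NL. On L-SFMA 4 of 13 were lower (11.1% of all genes tested) and 0 were higher (14.8%), with a median of -0.48. Allowing for length 1 of 13 was lower (7.46% of all genes) and the median was -0.37. On NL-SFMA 1 of 13 was higher (21.6% of all genes) and 5 were lower (29.3%), with a median of -0.30. Allowing for length 2 were higher (19.1% of all genes) and 1 lower (18.9%), and the median was 0.04. L-SFMA held the lowest level for 7 of the 13 subunits, and for 9.36% of all genes tested.

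Eif3g, an RNA-binding subunit that contacts the scanning complex, stood farthest from the rest. It was at 148 FPKM on SFMA, 98.3 with N, 89.7 with L and 36.9 with NL. Its level on NL-SFMA was 4.00-fold lower than on SFMA (3.73 to 4.30), from 918 reads against 4553, and on N-SFMA and L-SFMA it was 1.50-fold lower (1.43 to 1.58) and 1.65-fold lower (1.57 to 1.73). The log2 difference on NL-SFMA was -1.97, and -1.34 with the length trend subtracted. No other eIF3 subunit was 1.5-fold lower by that measure on NL-SFMA.

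Eif3i, a subunit of the same mobile module as Eif3g and Eif3b, was at 209 FPKM on SFMA, 154 with N, 116 with L and 116 with NL, 1.80-fold lower on L-SFMA (1.72 to 1.88). Its module partner Eif3b was at 129.6, 129.9, 108 and 102 FPKM. Thus the 3 subunits of that module were lowest on NL-SFMA or level there with L-SFMA as deposited. With the length trend subtracted only Eif3g kept that order. Eif3i was then at -0.53 on L-SFMA and -0.12 on NL-SFMA, and Eif3b at -0.29 and -0.20, both lowest on L-SFMA. Eif3f, the most abundant eIF3 transcript, was at 504, 394, 304 and 336 FPKM, lower on NL-SFMA as deposited (-0.59) and higher with the length trend subtracted (0.20). Eif3d, a subunit that can bind caps itself, was at 79.5, 68.7, 56.6 and 51.1 FPKM. Eif3k, a peripheral subunit, was at 80.1, 72.2, 55.6 and 44.8 FPKM.

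Other eIF3 subunits did not follow that order. Eif3a, the largest subunit and the longest eIF3 gene, was at 30.4 FPKM on SFMA, 42.2 with N, 45.6 with L and 47.4 with NL, 1.56-fold higher on NL-SFMA (1.49 to 1.64); its log2 difference of 0.63 was 0.09 with the length trend subtracted. Eif3m was at 65.2, 50.6, 40.0 and 64.3 FPKM, lower on both single-letter hydrogels and at its SFMA level on NL-SFMA. Eif3e was at 141, 118, 95.5 and 157 FPKM and showed the same dip on L-SFMA. Eif3c, a core subunit, was at 172, 217, 176 and 238 FPKM. Eif3l was at 126, 129, 95.04 and 146 FPKM, again lowest on L-SFMA and highest on NL-SFMA. Eif3h was at 115 to 155 FPKM and Eif3j at 35.0 to 46.9 FPKM.

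**Figure D3:**
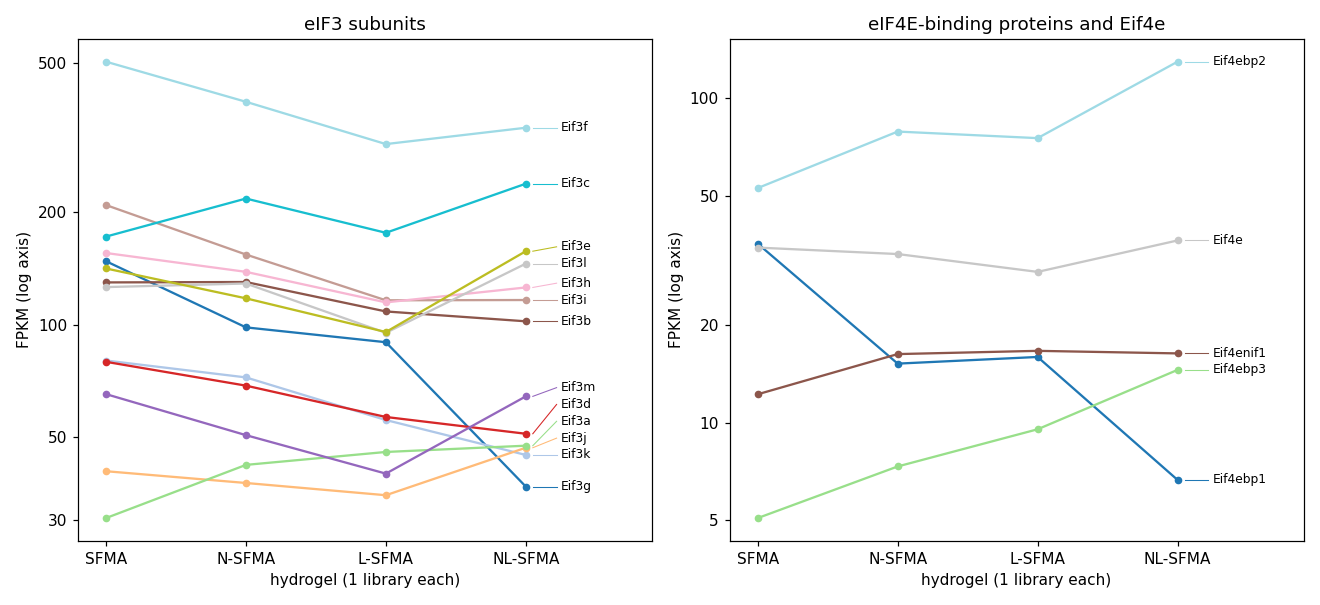
FPKM of the 13 eIF3 subunits (left) and of the eIF4E-binding proteins with Eif4e (right) in the 4 libraries, on log axes, 1 line per gene and no error bars, since each point is 1 library. Eif3g descends from 148 to 36.9 FPKM and Eif4ebp1 from 35.6 to 6.66 FPKM between SFMA and NL-SFMA, while Eif4ebp2 goes from 52.8 to 129 FPKM.

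In eIF4F the cap-binding protein gene Eif4e was at 34.6 FPKM on SFMA, 33.1 with N, 29.1 with L and 36.4 with NL. The counting intervals of its folds include 1 on N-SFMA (1.05-fold lower, 0.991 to 1.11) and on NL-SFMA (1.05-fold higher, 0.996 to 1.11). On L-SFMA Eif4e was 1.19-fold lower (1.12 to 1.26). With the length trend subtracted its log2 differences were -0.22 with N, -0.53 with L and -0.22 with NL. Its relative Eif4e3 was near the threshold of the set at 2.18 to 3.75 FPKM. Eif4a1, the main eIF4A helicase gene, was at 895, 807, 645 and 559 FPKM, 1.60-fold lower on NL-SFMA (1.57 to 1.63), a log2 difference of -0.68 that was -0.07 with the length trend subtracted. Its paralogue Eif4a2, a form abundant in brain, was at 84.8, 90.7, 81.9 and 69.0 FPKM, 1.23-fold lower on NL-SFMA (1.18 to 1.28). The level of Eif4a1 was 10.6 times that of Eif4a2 on SFMA and 7.88 to 8.90 times on the others, as deposited. These models differ in length, 1807 against 4230 bases. With the length trend subtracted the log2 differences of Eif4a2 were -0.02 with N, -0.28 with L and -0.50 with NL. Each lay below that of Eif4a1 (0.09, -0.24 and -0.07), so the shift in the ratio turned.

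The eIF4G scaffolds differed from each other. Eif4g1, the main scaffold gene, was at 51.0 FPKM on SFMA, 58.8 with N, 65.5 with L and 51.9 with NL, 1.28-fold higher on L-SFMA (1.24 to 1.33). With the length trend subtracted its log2 differences turned to -0.05 with N, -0.07 with L and -0.47 with NL. Eif4g2 (DAP5), which lacks the eIF4E-binding part and serves initiation that does not use eIF4E, was at 229, 304, 296 and 489 FPKM. It was 2.13-fold higher on NL-SFMA (2.10 to 2.17), and its log2 difference of 1.09 was 0.72 with the length trend subtracted. The level of Eif4g2 was 4.49 times that of Eif4g1 on SFMA and 9.42 times on NL-SFMA. Eif4g3, a further scaffold gene and a long one of 9159 bases, was at 8.75, 11.9, 18.05 and 15.0 FPKM. It was 2.06-fold higher on L-SFMA (1.93 to 2.20) and 1.71-fold higher on NL-SFMA (1.60 to 1.84), but with the length trend subtracted its log2 difference went from 0.97 to 0.32 on L-SFMA, no longer past 1.5-fold, and turned from 0.71 to -0.11 on NL-SFMA.

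Eif4h, a helper of the eIF4A helicase, was at 264 FPKM on SFMA, 192 with N, 189.6 with L and 133 with NL, 1.99-fold lower on NL-SFMA (1.92 to 2.05) with a log2 difference there of -0.77 once the length trend was subtracted. Eif4a3, the helicase of the exon junction complex, was at 179 FPKM on SFMA, 148 with N, 126 with L and 91.1 with NL. Its log2 difference of -0.97 on NL-SFMA was -0.32 with the length trend subtracted.

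The eIF4E-binding proteins block the meeting of eIF4E with eIF4G until mTOR phosphorylates them, and their transcripts held the largest differences of the whole set. Eif4ebp1 was at 35.6 FPKM on SFMA, 15.2 with N, 15.9 with L and 6.66 with NL, from 1449 reads on SFMA and 219 on NL-SFMA. It was 2.34-fold lower on N-SFMA (2.12 to 2.59), 2.23-fold lower on L-SFMA (2.03 to 2.46) and 5.34-fold lower on NL-SFMA (4.63 to 6.19). Eif4ebp2, the form known for its role in the brain, was at 52.8, 78.8, 75.2 and 129 FPKM. It was 1.49-fold higher on N-SFMA (1.41 to 1.58), 1.43-fold higher on L-SFMA (1.35 to 1.50) and 2.45-fold higher on NL-SFMA (2.33 to 2.58).

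These genes have gene models of similar length, 2320 bases for Eif4ebp1 and 2498 bases for Eif4ebp2, and both kept their direction with the length trend subtracted. On NL-SFMA the log2 difference of Eif4ebp1 was -2.26 as deposited and -1.88 with the trend subtracted, and that of Eif4ebp2 was 1.28 and 1.58. The level of Eif4ebp2 was 1.48 times that of Eif4ebp1 on SFMA, 5.19 times on N-SFMA, 4.72 times on L-SFMA and 19.4 times on NL-SFMA. Set against Eif4e, Eif4ebp1 stood at 1.03 on SFMA and 0.183 on NL-SFMA, and Eif4ebp2 at 1.53 and 3.55. The transcripts of both forms thus moved apart on each lettered hydrogel, most of all on NL-SFMA.

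Eif4ebp3, a further member of the family, was at 5.08, 7.33, 9.54 and 14.5 FPKM and was 2.86-fold higher on NL-SFMA (2.64 to 3.10). It has the longest model of the set, and with the length trend subtracted its log2 difference went from 1.35 to 0.50 on NL-SFMA, from 0.79 to 0.13 on L-SFMA and from 0.45 to 0.04 on N-SFMA, none of them past 1.5-fold. Its value is uncertain: the listed gene model has 9553 bases, the RefSeq gene spans 1747 bases, and the neighbouring gene in RefSeq is Ankhd1, for which no row of that name was used, so reads of both cannot be told apart. Eif4enif1, the 4E-T protein that carries eIF4E into the nucleus and into mRNA bodies, was at 12.2 FPKM on SFMA and 16.3 to 16.6 on the others.

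Factors of subunit joining differed in direction. Eif5, the GTPase activator of eIF2, was at 43.0 FPKM on SFMA, 55.3 with N, 61.2 with L and 85.2 with NL, 1.98-fold higher on NL-SFMA (1.89 to 2.07) and 0.82 higher on the log2 scale with the length trend subtracted. Eif5b, the GTPase that promotes joining of the large subunit, was at 11.1, 16.02, 16.5 and 18.6 FPKM, 1.67-fold higher on NL-SFMA (1.53 to 1.82). Its log2 difference there went from 0.69 to 0.39 with the length trend subtracted, no longer past 1.5-fold. Eif6, which keeps the large subunit from joining too early, was at 107, 82.3, 71.1 and 40.1 FPKM, 2.66-fold lower on NL-SFMA (2.48 to 2.85) and -0.81 with the length trend subtracted. Eif5 and Eif5b were therefore highest, and Eif6 lowest, on the same hydrogel.

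The eIF5A paralogues also parted. Eif5a, the common form, was at 379.7 FPKM on SFMA, 247 with N, 209.5 with L and 161 with NL. It was 1.53-fold lower on N-SFMA (1.49 to 1.58), 1.81-fold lower on L-SFMA (1.75 to 1.87) and 2.36-fold lower on NL-SFMA (2.27 to 2.45). Eif5a2, the scarce form, was at 2.97, 3.59, 4.01 and 6.24 FPKM, 2.10-fold higher on NL-SFMA (1.80 to 2.46). The level of Eif5a was 128 times that of Eif5a2 on SFMA, 68.9 times on N-SFMA, 52.3 times on L-SFMA and 25.8 times on NL-SFMA. These models differ in length, 1530 against 4871 bases. With the length trend subtracted the log2 differences of Eif5a were -0.32 with N, -0.55 with L and -0.53 with NL. Those of Eif5a2 were 0.03, 0.02 and 0.53. None of these was past 1.5-fold, and Eif5a was then lowest on L-SFMA.

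**Figure D4:**
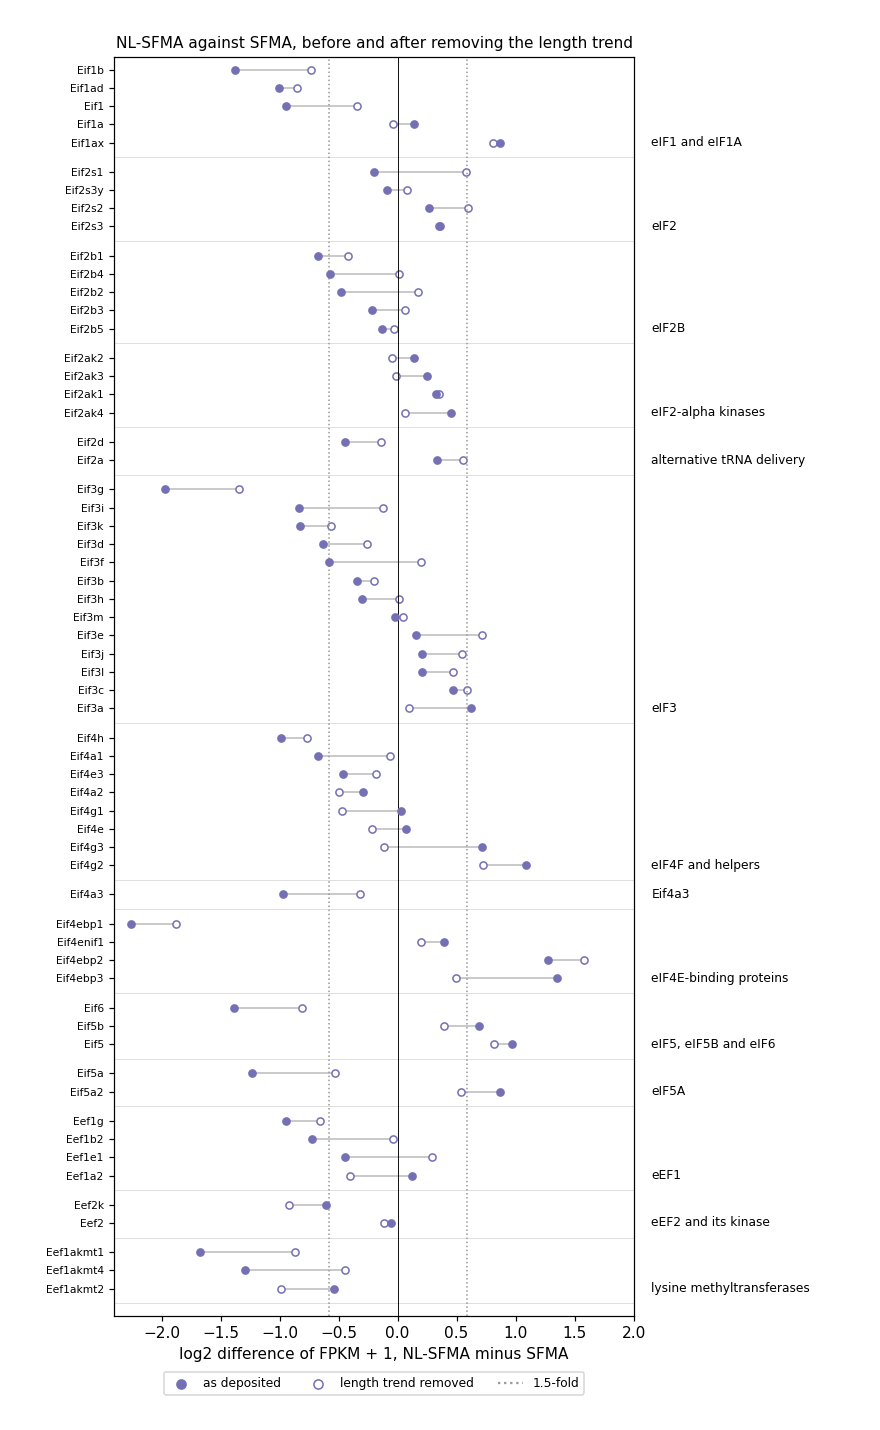
Log2 difference in FPKM + 1 of NL-SFMA against SFMA for each of the 60 factors, grouped by complex, with the value as deposited and the value after the length trend is subtracted. Eif4ebp1 lies at -2.26 and -1.88, Eif3g at -1.97 and -1.34, Eif4ebp2 at 1.28 and 1.58, and 43 of the 60 factors lie closer to 0 with the trend subtracted.

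Among the elongation factors, Eef2, the translocase, was the most abundant factor at 1216 FPKM on SFMA, 1386 with N, 1128 with L and 1170 with NL, 1.14-fold higher on N-SFMA (1.13 to 1.15). Its kinase Eef2k, which inhibits it, was at 17.2, 15.0, 14.4 and 10.97 FPKM and was lower on NL-SFMA. Eef1g, the gamma subunit of the exchange complex, was at 796, 667, 502 and 413 FPKM. It was 1.59-fold lower on L-SFMA (1.56 to 1.61) and 1.92-fold lower on NL-SFMA (1.89 to 1.96), with log2 differences of -0.62 and -0.66 once the length trend was subtracted. Eef1b2, which carries the exchange activity, was at 258, 197, 147 and 156 FPKM, 1.76-fold lower on L-SFMA (1.69 to 1.83). With the length trend subtracted its log2 difference went from -0.81 to -0.52 on L-SFMA, no longer past 1.5-fold. On NL-SFMA it went from -0.73 to -0.04. Eef1e1, which belongs to the aminoacyl-tRNA synthetase complex, was at 46.6 to 65.8 FPKM.

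Eef1a2, the eEF1A form of mature neurons and muscle, was at 30.4 FPKM on SFMA, 39.7 with N, 38.7 with L and 33.2 with NL, 1.31-fold higher on N-SFMA (1.24 to 1.37). Its model is long, at 6076 bases, and with the length trend subtracted the log2 differences of 0.34 on L-SFMA and 0.12 on NL-SFMA turned to -0.10 and -0.40. The common form Eef1a1 had 4, 3, 1 and 0 reads and so fell outside the set. It has many near-identical processed copies in mammalian genomes, and its row is not read as a level. Eif4b, Eef1d and Eif4e2 were not analysed here.

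The lysine methyltransferases of eEF1A were low and lay lowest on NL-SFMA. Eef1akmt1 was at 18.3 FPKM on SFMA, 15.6 with N, 11.5 with L and 5.04 with NL, 3.63-fold lower on NL-SFMA (2.87 to 4.63) from 87 reads. Eef1akmt4 was at 16.2, 14.2, 9.07 and 6.00 FPKM, 2.70-fold lower on NL-SFMA (2.14 to 3.43). These are short models of 1217 and 1106 bases, and with the length trend subtracted the log2 difference on NL-SFMA went from -1.68 to -0.87 for Eef1akmt1 and from -1.30 to -0.45, no longer past 1.5-fold, for Eef1akmt4. Eef1akmt2, a long model of 5578 bases, was at 2.34 to 3.85 FPKM and went the other way. Its log2 differences of -0.37 with N, -0.34 with L and -0.54 with NL were short of 1.5-fold as deposited. With the length trend subtracted they were -0.60, -0.74 and -0.99, all past it. Just outside the threshold, Eef2kmt, the methyltransferase of eEF2, was at 0.954 FPKM on SFMA, 0.930 with N, 0.622 with L and 0.506 with NL, and Eef1akmt3 had 1 read in all; just inside lay Eif4e3, Eef1akmt2 and Eif5a2.

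Many factor and ribosomal protein mRNAs begin with a C followed by a run of pyrimidines (a 5′ TOP), through which mTOR and LARP1 control their translation. Of the TOP factor list, 6 of 9 genes were among those tested; 0 of 6 were lower on N-SFMA, 3 of 6 on L-SFMA and 3 of 6 on NL-SFMA, and 0 were higher. Their medians were -0.26, -0.61 and -0.44, or -0.06, -0.37 and -0.02 with the length trend subtracted, when 1 was lower on L-SFMA and 1 was lower and 1 higher on NL-SFMA. The 86 tested rows of cytosolic ribosomal proteins, with short models of 1006 bases in the median, had 50, 80 and 73 lower and 0 higher, with medians of -0.67, -0.99 and -1.26, or -0.32, -0.59 and -0.57 with that trend subtracted. Of all genes tested 10.7%, 11.1% and 29.3% were lower as deposited, and of those under 1500 bases 30.9%, 36.9% and 60.7%. With the trend subtracted 21, 45 and 41 of the 86 rows were lower and 2, 0 and 5 higher. By that measure 6.78%, 7.46% and 18.9% of all genes were lower and 5.79%, 8.12% and 19.1% higher. The TOP factor genes were thus less far below SFMA than the ribosomal protein genes, by median, on all 3 lettered hydrogels under both measures.

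The 30 bases before the RefSeq start (GRCr8 build, gene strand, 5′ to 3′) are shown for the 4 TOP genes with a promoter in the RefSeq table and for 8 factors with large differences; capitals mark a pyrimidine tract, a C followed by at least 7 bases of C or T, searched from 30 bases before to 10 bases after the start on the gene strand only.
Eef1g: gacagccccaCCCCCTTTCTCTgcggaatc
Eef1b2: ctctatataaggacttttccggccggtccc
Eef2: gacgtcagcggtctcttccgccgcagccgc
Eif3f: tctaatactaccaactcacgcccttccgtt
Eif3g: ctttacccgggctgagagctgcgtggagta
Eif4ebp2: ctcccgccttcgcccgcttccggtagtcat
Eif4g2: agttcggcttcagacacgcctcagcgccag
Eif5: ctgcagggggcgggacccggggccgagggt
Eif5a: tgcagcagcggcggcggcgctagaggcggc
Eif6: acgggagaagttgttgcagcgtgtagagat
Eif3i: atccggaagtcgccccagtCTTCTTCCggt
Eif4h: gaggaggagttatattgcggggtCCTTCCT
The windows lie at chr1:215289785-215289814 on the plus strand for Eef1g, chr9:72074061-72074090 plus for Eef1b2, chr7:9189239-9189268 minus for Eef2 and chr1:172369032-172369061 plus for Eif3f. Those of the other genes lie at chr8:27709947-27709976 minus for Eif3g, chr20:29942923-29942952 minus for Eif4ebp2, chr1:174628253-174628282 minus for Eif4g2, chr6:136410303-136410332 plus for Eif5, chr10:55143222-55143251 minus for Eif5a, chr3:164791411-164791440 minus for Eif6, chr5:147226911-147226940 minus for Eif3i and chr12:27719662-27719691 plus for Eif4h. The tract of Eef1b2 lies just past the start and outside the printed bases. That of Eif4h is 8 bases long and runs past the last printed base, so only 7 of its bases are shown in capitals. Of 58 start windows of 56 factors found in the table, 14 (24.1%) held such a tract, against 4141 of 33469 windows over all promoters (12.4%). Of the 14 factors named for a large difference that have a window, 5 held one: Eef1b2, Eef1akmt1, Eif3i, Eif4h and, at 1 of its starts, Eif4g3. A RefSeq start can differ from the start used in these cells, and a match or its absence describes these letters only.

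Genes that act with the factors were read from lists, with the same 1.5-fold rule. Of all genes tested 7.24%, 14.8% and 21.6% were higher with N, L and NL, and 10.7%, 11.1% and 29.3% were lower. With the length trend subtracted 5.79%, 8.12% and 19.1% were higher and 6.78%, 7.46% and 18.9% lower. The lists are short, and their counts are given beside these shares with no test. Of 9 partners of the poly(A) tail and mRNA, 0 were higher with N, 2 with L and 4 with NL, and 0, 0 and 1 were lower; with the length trend subtracted 0, 1 and 3 were higher and 0 lower. Larp1, the TOP-binding protein, was at 10.2 FPKM on SFMA, 14.2 with N, 20.3 with L and 26.6 with NL, and Pabpc1, the poly(A)-binding protein that contacts eIF4G, at 146, 177, 159.7 and 273. Of 11 genes of mTOR and MNK signalling, 1, 2 and 4 were higher and 0, 0 and 3 were lower, and with that trend subtracted 0, 0 and 2 were higher and 0, 0 and 3 lower; Mtor itself was at 7.51, 15.7, 15.9 and 22.3 FPKM, a gene model of 9046 bases whose log2 difference on NL-SFMA of 1.45 was 0.63 with the length trend subtracted. Besides Mtor, the genes of that list higher on NL-SFMA were Tsc1, Tsc2 and Rps6kb1, and those lower were Akt1, Mknk2 and Rps6kb2. With that trend subtracted Mtor and Tsc1 were higher, and Akt1, Mknk2 and Rheb lower. Akt1 went from 155 FPKM on SFMA to 91.0 on NL-SFMA and Mknk2 from 52.8 to 27.8. Both Mtor and Larp1 were highest on NL-SFMA, while members of the signalling list did not share a direction.

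Of 12 tested transcripts of the integrated stress response, which follows phosphorylation of eIF2, 0, 0 and 3 were higher and 1, 1 and 5 were lower; with the length trend subtracted 0, 0 and 3 were higher and 1, 0 and 1 lower. Atf4, its central transcription factor, was at 266 FPKM on SFMA, 229.6 with N, 207 with L and 139 with NL, and its log2 difference on NL-SFMA of -0.93 was -0.21 with that trend subtracted. Its target Asns, of asparagine synthesis, was at 79.0, 94.5, 71.3 and 107 FPKM, so members of this list did not share 1 direction. Both hypusine enzymes, which modify eIF5A, were lower on NL-SFMA: Dhps was at 101, 73.5, 68.9 and 51.3 FPKM and Dohh at 23.1, 15.1, 15.0 and 7.42. With the length trend subtracted their log2 differences on NL-SFMA were -0.30 and -0.85, so that Dohh alone stayed past 1.5-fold. Of 7 diphthamide enzymes, which modify eEF2, 4 were lower on NL-SFMA, and 2 with that trend subtracted. Of 8 release and recycling factors 2 were higher and 2 lower on NL-SFMA, and 3 and 0 with that trend subtracted, with Abce1, the recycling ATPase, at 36.7, 43.2, 41.2 and 74.5 FPKM. Of 6 mitochondrial translation factors 1 was higher and 2 were lower there, and 0 and 1 with that trend subtracted. Of all genes tested 21.6% were higher and 29.3% lower on NL-SFMA, and 19.1% and 18.9% with that trend subtracted. Counts in these short lists are not read as different from those shares.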

How the data were processed

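For 4 libraries of poly(A) RNA the deposited tables list 18755 genes with a read count and an FPKM value. Deposited counts are whole numbers; the submitters' processing notes name HTSeq 0.13.5 and HISAT2 (no version) and the builds mRatBN7.2 and GRCh38 without a role. For strand and filters, settings were not given in the sources used here. The deposited FPKM is the count divided by gene model length and by the summed count, which was checked by recovering whole lengths to within 1e-08 bases. FPKM levels of different genes are therefore on a common scale. A listed model length can still differ from that of the transcript, as for Eif4ebp3, so ratios between genes are approximate.

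With 1 library per hydrogel no test was made. Differences are on the log2(FPKM + 1) scale, which understates the change of low genes, over genes with FPKM of at least 1 in 1 library; 1.5-fold and 2-fold were counted. Folds are CPM ratios with exact (Clopper-Pearson) 95% intervals. The trend on log2 length was fitted by lowess (fraction 0.3) over all tested genes and subtracted. Steps were checked on simulated data. Alternatives were another pseudocount, other filters, TMM (edgeR 4.0.16, R 4.3.3), median-of-ratios, TPM and totals without mitochondrially encoded genes. Python 3.11.15 with numpy 2.4.6, pandas 2.3.3, scipy 1.17.1, statsmodels 0.14.6 and matplotlib 3.10.9 was used. Folds were given for 10 core factors, Eef1a1 excepted for its counts near 0, and for the 4 largest differences each way per comparison; those of Eif1b, Eif1ax, Eef1g, Eef1akmt4 and Eif5a2 were added after their values were seen. Every factor is given by its level or range. The members and lists were chosen with earlier results of these data known. Start windows came from RefSeq (GRCr8), matched by symbol for 56 factors and not for 4.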

Additional observations from a re-analysis of the deposited data

Results flagged for a closer look

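Rows with pseudogene names of these factors lay outside the comparisons and still held reads above the limit of 3 counts that a count of 0 allows. Eif4g1-ps1 had 1717 reads in its highest library, L-SFMA, and 1132 to 1563 in the others, 25.9% to 29.7% of the reads of Eif4g1. Eif4a1-ps8 had 153 reads on SFMA, its highest library, and 89 to 110 in the others. Eif5-ps1 had 30 reads on NL-SFMA, its highest, and 13 to 23 in the others. Whether reads of the parent genes were counted in these rows was not tested.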

How the results depend on the processing

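No paired analysis was possible because each hydrogel has 1 library, and for the same reason no replicate could be left out. Another pseudocount, FPKM of at least 5, no filter and totals without mitochondrially encoded genes left every factor median within 0.1 and every count of factors past 1.5-fold within 1.5 times. TMM and median-of-ratios scaling each gave 1 factor higher and 1 lower on N-SFMA, where the deposited scale gave 0 and 2. TPM gave a median of 0.0357 with 6 factors higher and 1 lower on N-SFMA, of -0.0805 with 13 and 3 on L-SFMA, and of 0.062 with 15 and 12 on NL-SFMA. With the length trend subtracted the medians were -0.0188 on N-SFMA and -0.0414 on NL-SFMA, with 1 factor higher on N-SFMA, 0 higher and 4 lower on L-SFMA, and 10 lower on NL-SFMA. The difference of Eif4g3 on NL-SFMA turned from 0.71 to -0.11 under that setting. It was 1 of 12 of the 66 differences of named factors that changed sign, and the other 11 were under 1.5-fold as deposited, among them Eif2s1 on NL-SFMA (-0.20 to 0.58) and Eif4g1 on NL-SFMA (0.03 to -0.47); the cause was not tested. Depth limits the factors with few reads, such as Eef1akmt1 with 87 on NL-SFMA, and no setting replaces replicate libraries.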
